A study of Mus musculus with 12 samples.

Results

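The genes described here are 10 targets of the RAS-ERK pathway, most of which feed back on it, and which lie downstream of the receptor ERBB2: Dusp4, Dusp5, Dusp6, Spry1, Spry2, Spry4, Spred1, Etv4, Etv5 and Phlda1. They were taken by gene symbol from the 54532 genes of the deposited tables, and all 10 were found and passed the filter on low counts that left 15504 genes for testing. Poly(A) RNA was sequenced from 12 mammary tumors of MMTV-neu mice, with 4 tumors for each of 3 diets: control, MSU-42011 and bexarotene. The 2 drugs are agonists of the retinoid X receptor (RXR), a nuclear receptor, and were mixed into the diet at 100 mg/kg for 10 days, starting when a tumor measured 4 mm across. All 3 groups carried the same transgene and differed only in diet, and the ages of the mice are not given in the sources used here. In this model the promoter of mouse mammary tumor virus drives neu, the rat form of Erbb2, in mammary epithelium. How many transgene reads the mouse Erbb2 count holds was not tested.

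ERBB2 is a receptor tyrosine kinase that activates RAS and then the kinases RAF, MEK and ERK. Active ERK induces a set of genes whose products damp the same pathway: phosphatases of the DUSP family remove the activating phosphates from ERK, and Sprouty and SPRED proteins act on the steps between receptor, RAS and RAF. Transcription factors of the PEA3 group, to which ETV4 and ETV5 belong, are also induced and carry the signal on to other genes. For this reason the transcripts of these genes are often read as a record of recent ERK activity, although each gene has other inputs.

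Total counts were between 16583413 and 25925027 per tumor, and single-gene values below are CPM values (read counts scaled to a fixed library size) normalized by edgeR's TMM method. Epithelial markers summed to between 3066 and 6431 normalized CPM in the 12 tumors. The tumor labelled bexarotene replicate 1 stood apart from the rest. Its 10 fibroblast markers summed to 11484 normalized CPM, against 112 to 941 in the other 11 tumors, its 10 macrophage markers to 2384 against 290 to 851, and its 8 epithelial markers to 3066 against 4723 to 6431. Skeletal muscle markers summed to 289 in this tumor and to 154 in control replicate 1, and to at most 4.92 elsewhere. In whole tumor pieces such as these, fewer cells of a type and less RNA per cell cannot be told apart. In bexarotene replicate 1 none of the 10 feedback genes was among its 3 highest tumors, and for 3 genes it was among the 3 lowest. The part of tumor makeup in the values of these genes was not tested.

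No difference between diets was detected for any of the 10 genes. By edgeR's quasi-likelihood test, 0 of 10 passed an adjusted p of 0.05 in each of the 3 pairs of groups and in the test among all 3, where 0.00% of the 15504 tested genes passed. At an unadjusted p under 0.05 the count of feedback genes was also 0 in every comparison. Over all tested genes this share was 1.99% between MSU-42011 and control, 6.44% between bexarotene and control, 3.95% between the drugs and 4.24% among the 3 groups. DESeq2 likewise called 0 of the 10, and gave 0 of them an unadjusted p under 0.05 in the 3 pairs of groups. No feedback gene separated the tumors of 2 groups completely, without overlap. Of all tested genes, 1.97%, 2.03% and 1.17% were separated in this way in the 3 comparisons, in the order just given. At shares this low, counts of 0 in 10 genes do not set these genes apart from the rest.

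The intervals around these differences were narrow enough to bound most of them. For MSU-42011 against control, the 95% interval of the fold change lay between 0.5 and 2 for 8 of 10 genes, and the widest reached 2.28, for Dusp4. For bexarotene against control it did so for 9 of 10 genes, with the highest bound at 2.02, for Phlda1. Between the drugs it did so for 9 of 10, with the highest bound at 2.07, for Dusp4. These intervals hold for 1 gene at a time and are not adjusted for the number of genes. The median log2 fold change over the 10 genes was 0.06 for MSU-42011 against control, where the median over all tested genes was 0.0016. It was 0.07 for bexarotene against control, against 0.03 over all tested genes, and 0.09 between the drugs, against -0.02. The pooled SD between tumors of the median log2 level of the 10 genes was 0.24, which is larger than each of these.

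**Figure D1:**
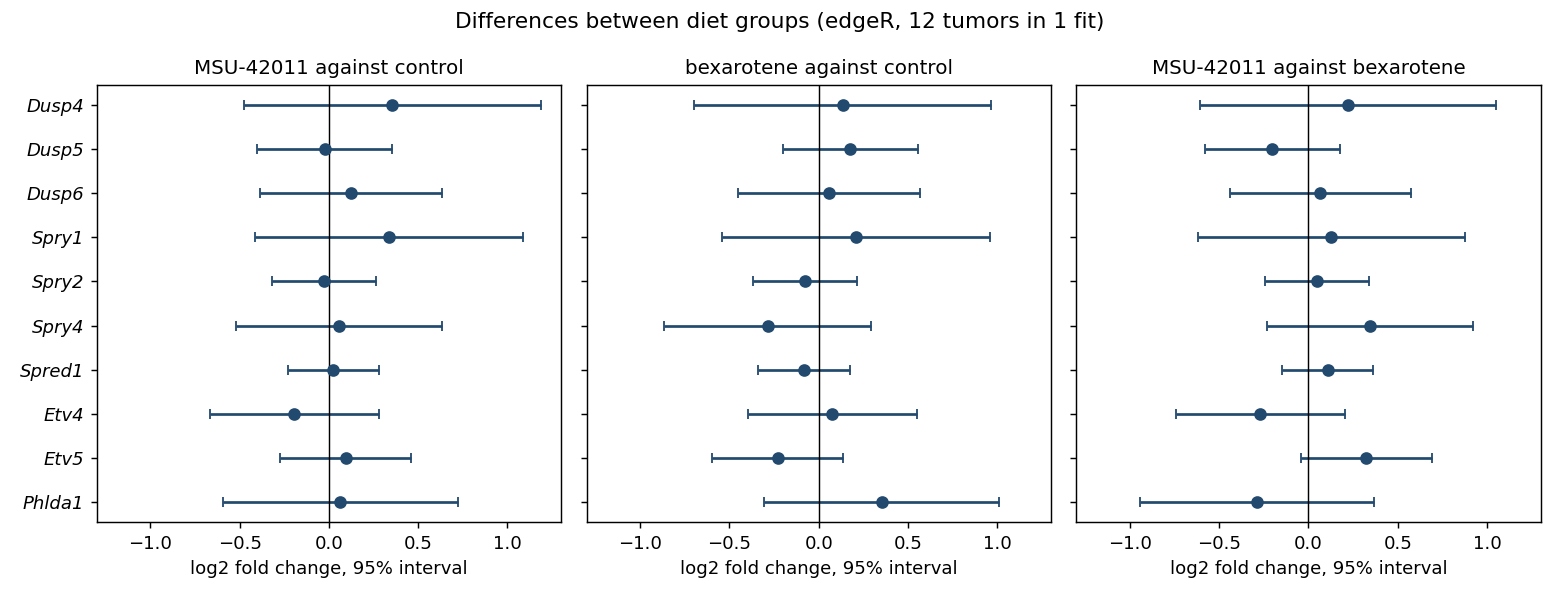
Log2 fold change of each feedback gene (x axis, with its 95% interval from edgeR) in the 3 comparisons of diet groups. All 30 intervals include 0, and the widest belong to Dusp4 and Spry1.

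The promoters of Dusp5 and Dusp6, phosphatases both specific for ERK, are shown as a description. They were picked after their r of 0.23 with each other over the 12 tumors was seen. Other pairs had a lower r, such as -0.11 for Dusp4 with Dusp5. Whether promoter letters bear on any r was not tested. The sequences are those of RefSeq on GRCm38.p6, plus strand, and both end at the base before the gene start given in the deposited tables (Dusp5 chr19:53528895-53529108, Dusp6 chr10:99262981-99263230). Capitals mark each CArG box, the site of serum response factor, and each GGAA or TTCC, the letters at the centre of ETS factor sites.

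Dusp5: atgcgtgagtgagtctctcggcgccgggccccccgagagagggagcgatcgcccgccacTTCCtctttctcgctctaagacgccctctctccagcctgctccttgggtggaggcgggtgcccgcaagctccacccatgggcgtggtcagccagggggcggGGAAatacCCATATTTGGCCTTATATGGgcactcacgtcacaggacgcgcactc

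Dusp6: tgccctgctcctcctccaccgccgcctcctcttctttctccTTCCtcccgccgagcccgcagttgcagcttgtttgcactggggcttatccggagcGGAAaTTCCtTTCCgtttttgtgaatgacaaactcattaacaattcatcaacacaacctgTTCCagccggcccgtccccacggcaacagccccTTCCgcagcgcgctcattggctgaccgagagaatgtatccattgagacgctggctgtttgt

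The Dusp5 stretch held 2 CArG boxes that adjoin each other, starting 46 and 36 bases before the gene, with a GGAA 4 bases ahead of the first. Of the 32851 mouse promoters of the RefSeq table, 1.47% held a CArG box in the 250 bases before the start and 0.0183% held 2 or more. The Dusp6 stretch held no CArG box and 6 copies of GGAA or TTCC, a number reached by 8.69% of promoters, whose median was 3. Windows were at hand for Dusp5, Dusp6, Spry1, Spry2, Spred1 and Etv5, and none of them held the other letters searched on both strands: the ETS core CCGGAAG (in 6.91% of all promoters), the cAMP response element TGACGTCA (1.55%), the AP-1 site TGACTCA (4.46%), the nuclear receptor half-site AGGTCA (14.0%), or a pair of such half-sites in the same direction 1 to 5 bases apart (0.0731%). A match of letters is a description of these windows, not a measured binding site, and the CArG box was added to the search after the sequences had been seen. The count of GGAA or TTCC was not planned either, and its cutoff of 6 was the count in Dusp6 itself. The cutoff of 2 CArG boxes was likewise the count in Dusp5. The share of 8.69% is therefore no test of Dusp6, and those of 1.47% and 0.0183% are no test of Dusp5.

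Upstream of these genes, the control tumors had 131 ± 9.69 normalized CPM of Erbb2 (SD, n = 4), the MSU-42011 tumors 125 ± 34.5 and the bexarotene tumors 114 ± 12.9. The groups overlapped, and the highest and lowest tumors, at 173 and 93.8, were both from the MSU-42011 group. Mapk3, which encodes ERK1, had 290 ± 38.8, 248 ± 14.6 and 262 ± 30.8 in the same order. Among the 4 ERBB receptors and the 19 adaptors, RAS, RAF, MEK, ERK and RSK genes of the cascade, 0 were called in any comparison. At an unadjusted p under 0.05 the only one was Sos2, which encodes an exchange factor that loads RAS with GTP. Its log2 fold change was 0.24 for MSU-42011 against control (edgeR adjusted p = 1.000). Hras, one of the RAS genes, was at 59.6 ± 4.46, 54.2 ± 8.06 and 50.2 ± 8.52 normalized CPM in the 3 groups. Egfr had 73.3 ± 11.6, 83.7 ± 4.95 and 81.4 ± 11.6, and Erbb4 23.5 ± 3.23, 27.0 ± 2.24 and 22.2 ± 5.10.

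Dusp6 encodes a cytoplasmic phosphatase specific for ERK. In normalized CPM it measured 524.5, 471.5, 844.7 and 747.5 in the control tumors, 896.1, 629.3, 710.0 and 587.6 with MSU-42011, and 524.0, 533.1, 920.8 and 716.6 with bexarotene. The lowest tumor was in the control group and the highest in the bexarotene group, and the MSU-42011 tumors lay within the range of the bexarotene group. The log2 fold change was 0.13 ± 0.23 (SE) for MSU-42011 against control and 0.06 ± 0.23 for bexarotene against control, with exact permutation p-values of 0.51 and 0.80.

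Dusp4, a nuclear phosphatase of ERK and of the stress kinases JNK and p38, was one of the most variable genes of the set. Control tumors had 22.3, 23.3, 43.2 and 23.0 normalized CPM, MSU-42011 tumors 45.4, 30.8, 43.4 and 23.4, and bexarotene tumors 37.2, 13.9, 52.0 and 19.6. Control tumors were alike but for replicate 3, while both the lowest and the highest value came from the bexarotene group. The log2 fold change for MSU-42011 against control, 0.36, had an interval from -0.48 to 1.19 (edgeR adjusted p = 1.000, exact permutation p = 0.17).

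Dusp5, a nuclear phosphatase specific for ERK, varied less. It was at 42.3, 34.0, 46.7 and 39.5 normalized CPM in control tumors, 33.7, 54.5, 33.2 and 38.5 with MSU-42011, and 37.9, 42.4, 50.0 and 53.6 with bexarotene. The single highest tumor was MSU-42011 replicate 2, whose group also held the lowest tumors. The log2 fold change was 0.18 for bexarotene against control, with an interval from -0.20 to 0.56 (edgeR adjusted p = 0.91, exact permutation p = 0.26).

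Among the Sprouty genes, which encode membrane-associated inhibitors of receptor signaling to RAS and RAF, Spry1 had the widest range. Its values were 78.6, 42.9, 55.4 and 58.2 normalized CPM in control tumors, 101.4, 23.6, 87.0 and 84.4 with MSU-42011, and 76.6, 51.8, 69.7 and 73.4 with bexarotene. MSU-42011 replicate 2 was the lowest of all 12 tumors, and the other MSU-42011 tumors were above every control tumor. The log2 fold change for MSU-42011 against control was 0.34 (interval -0.42 to 1.09, edgeR adjusted p = 1.000, exact permutation p = 0.77). Without MSU-42011 replicate 2 it was 0.63, with an edgeR adjusted p of 0.99.

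Spry2 was the steadiest Sprouty gene. It had 76.8, 93.2, 95.5 and 85.5 normalized CPM in control tumors, 92.7, 63.9, 96.0 and 91.5 with MSU-42011, and 78.1, 77.7, 95.3 and 81.5 with bexarotene. Again MSU-42011 replicate 2 was the lowest tumor, and the other 11 fell in a common range. Its fold change was 0.98 for MSU-42011 against control, with an interval from 0.80 to 1.20, and 0.95 for bexarotene against control, with an interval from 0.77 to 1.16.

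Spry4 had 43.3, 38.4, 74.1 and 54.5 normalized CPM in control tumors, 59.9, 36.0, 78.9 and 43.8 with MSU-42011, and 38.6, 31.8, 50.9 and 51.3 with bexarotene. All bexarotene tumors were below the 2 highest tumors of each other group but overlapped with the rest. Against control the log2 fold change was 0.06 with MSU-42011 and -0.29 with bexarotene, and between the drugs it was 0.34, with exact permutation p-values of 0.89, 0.34 and 0.37.

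Spred1, whose product brings the RAS inactivator neurofibromin to the membrane, had the smallest spread of the 10 genes. Its values were 213.6, 174.3, 178.3 and 212.4 normalized CPM in control tumors, 230.7, 180.8, 188.6 and 192.3 with MSU-42011, and 205.4, 160.1, 188.5 and 181.8 with bexarotene. The groups lay on top of each other. The fold change was 1.02 for MSU-42011 against control (interval 0.85 to 1.22) and 0.95 for bexarotene against control (interval 0.79 to 1.13).

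**Figure D2:**
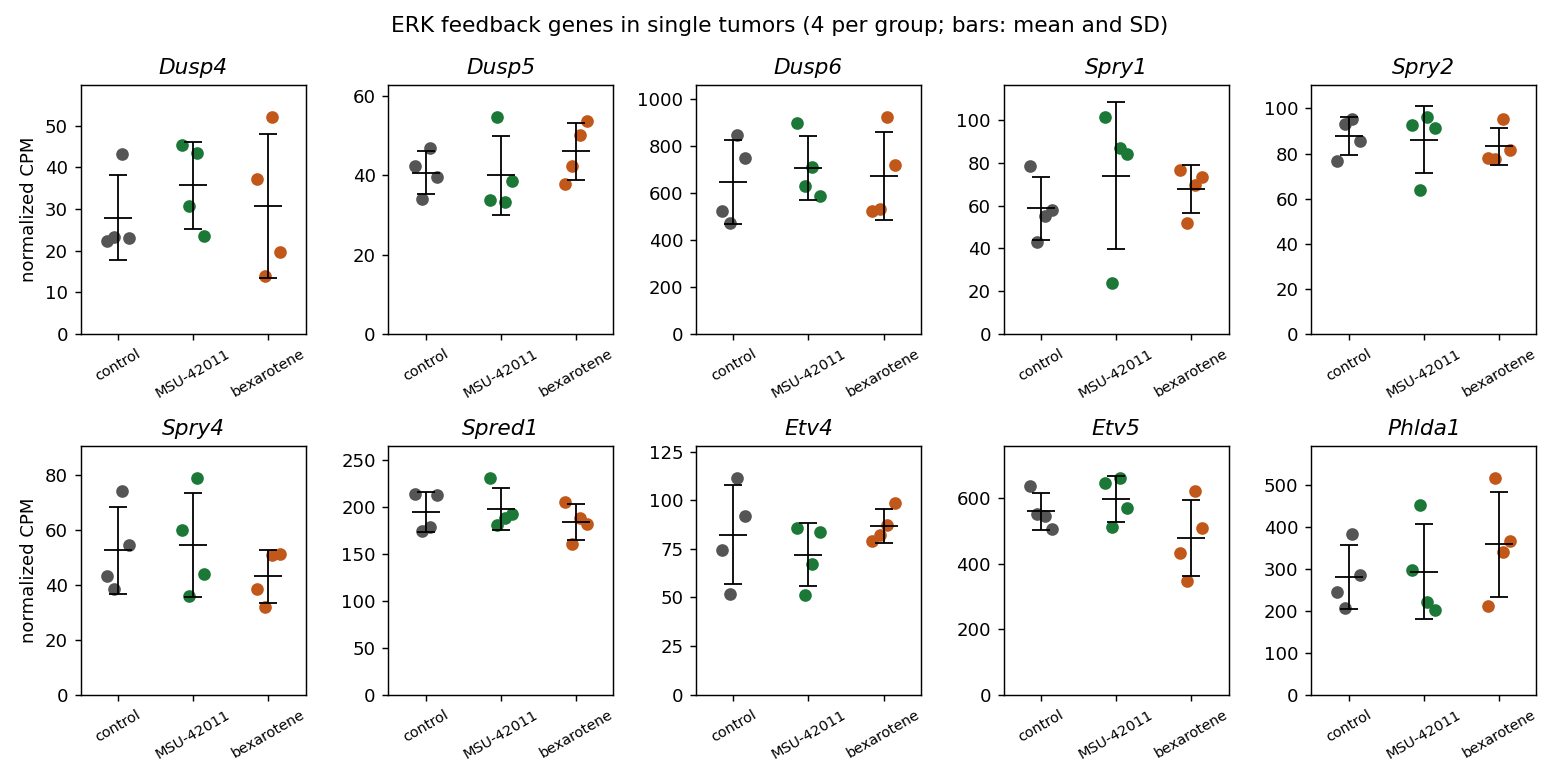
Normalized CPM (y axis, starting at 0, own scale for each gene) of the 10 feedback genes in each tumor by diet group, 4 tumors per group, with the group mean and SD. Groups overlap in every panel, and the low MSU-42011 point of Spry1 and of Spry2 is the same tumor, at 23.6 and 63.9.

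Of the PEA3 factors, Etv5 gave the smallest p-value of the set. It measured 637.8, 551.1, 545.0 and 505.9 normalized CPM in control tumors, 647.5, 511.8, 661.4 and 571.7 with MSU-42011, and 433.9, 346.6, 621.7 and 508.7 with bexarotene. The lowest values were those of bexarotene replicates 1 and 2, and bexarotene replicate 3 lay within the range of the other groups. Between the drugs the log2 difference was 0.32 ± 0.17 (SE), higher with MSU-42011, with an interval from -0.04 to 0.69 (edgeR adjusted p = 1.00). A two-sided exact permutation test (4 against 4 tumors) gave p = 0.114, or 0.95 after Benjamini-Hochberg adjustment over the 30 comparisons of the 10 genes; the smallest p this test can give is 0.0286. Against control, Etv5 had log2 fold changes of 0.10 for MSU-42011 and -0.23 for bexarotene, which share the control tumors. Without bexarotene replicate 3 the bexarotene value was -0.38 and the difference between the drugs 0.48, and without bexarotene replicate 2 they were -0.10 and 0.20.

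Etv4 measured 74.4, 51.6, 111.3 and 91.7 normalized CPM in control tumors, 85.6, 51.1, 67.2 and 83.7 with MSU-42011, and 78.8, 82.1, 87.5 and 98.5 with bexarotene. The control group covered almost the whole range, and the bexarotene tumors sat close together within it. Its log2 difference between the drugs was -0.27, lower with MSU-42011, with an interval from -0.74 to 0.20 (edgeR adjusted p = 1.00, exact permutation p = 0.20).

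Phlda1, which encodes a protein with a pleckstrin homology-like domain and is induced by ERK, measured 245.0, 207.7, 384.8 and 286.5 normalized CPM in control tumors, 297.4, 452.1, 222.2 and 203.4 with MSU-42011, and 212.2, 517.0, 340.6 and 366.2 with bexarotene. The highest tumors were bexarotene replicate 2 and MSU-42011 replicate 2, and every group reached down to about the same level. The log2 fold change for bexarotene against control was 0.35, with an interval from -0.30 to 1.01 (edgeR adjusted p = 0.90, exact permutation p = 0.40).

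Over all 30 comparisons of 1 gene between 2 groups, the smallest p of the exact permutation test was that of Etv5 between the drugs, and no adjusted value was below 0.95. MSU-42011 and bexarotene were given at the same dose and for the same time, so their values can be set side by side, and the differences between them had the intervals given above.

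In FPKM, the authors' level per length of transcript, Dusp6 was the highest of the set at 398 ± 94.8 (SD over 12 tumors), above 98.5% of tested genes. Etv5 followed at 303 ± 54.6 and Phlda1 at 269 ± 88.8. Then came Etv4 at 73.8 ± 16.2, Spred1 at 51.5 ± 5.78, Spry2 at 41.0 ± 5.35, Spry1 at 26.1 ± 8.75, Dusp5 at 17.0 ± 2.91, Dusp4 at 11.6 ± 4.78 and Spry4 at 10.9 ± 3.39. Neighbours in this order were separate in most tumors, but Etv5 was above Phlda1 in only 8 of 12 tumors and Dusp4 above Spry4 in only 5 of 12. The length behind the FPKM values was shorter than the length listed in the tables for 6 genes, by up to 2.86 times for Etv4. With the listed length, Phlda1 came before Etv5 and both Spry2 and Spred1 came before Etv4, so the place of Etv4 depends on the length used. Dusp6 was first and Spry4 last with both lengths.

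The genes varied to different degrees between tumors of the same group. The pooled SD of log2 normalized CPM within groups was 0.61 for Dusp4 and 0.61 for Spry1, larger than for 86.5% of tested genes in both cases, and 0.15 for Spred1, larger than for 13.7%. Phlda1 had 0.48, Spry4 0.42, Dusp6 0.36 and Etv4 0.35, while Dusp5 had 0.26, Etv5 0.24 and Spry2 0.19, below the median of 0.29 over all tested genes. From the lowest to the highest of the 12 tumors, Spry1 spanned 4.29-fold, Dusp4 3.75-fold and Spred1 1.44-fold.

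Some tumors were high or low for several of the genes. Of the 10 genes, 6 had MSU-42011 replicate 1 among their 3 highest tumors, 5 had control replicate 3 and 5 had MSU-42011 replicate 3. Control replicate 2 was among the 3 lowest for 7 genes and bexarotene replicate 2 for 6, yet bexarotene replicate 2 was the highest of all for Phlda1. Tumors of this kind were found in every group. The same counts were not made over all tested genes, so they cannot be read as a trait of these 10 genes.

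**Figure D3:**
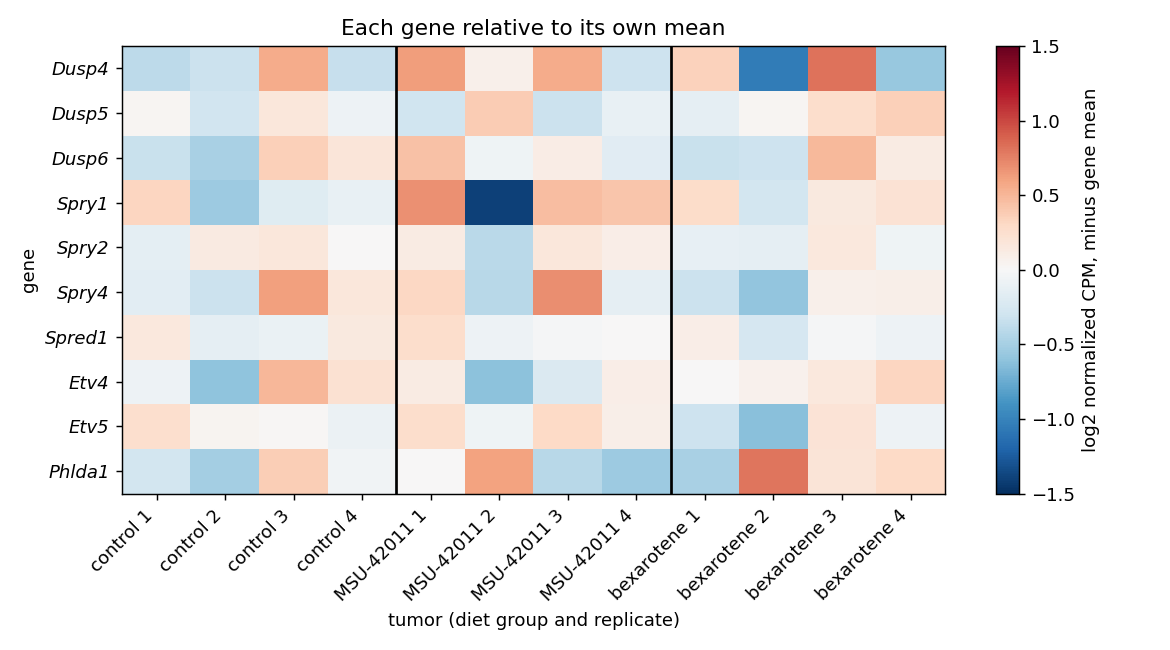
Log2 normalized CPM of the 10 feedback genes (rows) in the 12 tumors (columns, groups divided by lines), each minus the gene's mean over all tumors, with red above and blue below the mean. Control 2 is blue for most genes, and MSU-42011 2 and bexarotene 2 are blue for most genes but red for Phlda1, as is MSU-42011 2 for Dusp5.

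The genes did not vary as 1 block. Over the 12 tumors, Pearson's r of log2 normalized CPM was positive for 32 of the 45 pairs and negative for 13, with a median of 0.30, or 0.33 after group means were subtracted. Of the 28 pairs without Dusp5 or Phlda1, 27 were positive, with a median r of 0.44. Of the 16 pairs that joined Dusp5 or Phlda1 to one of the other genes, 12 were negative, with a median of -0.20. This division was made after the values had been seen and was not tested. In permutation tests 8 of the 45 pairs had an unadjusted p under 0.05 by Pearson's r, and 0 passed Benjamini-Hochberg adjustment over the 45, by Pearson's or Spearman's coefficient.

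Dusp6 and Spry4 were the most alike (r = 0.72, permutation p = 0.0084, adjusted p = 0.25, and rho = 0.69, permutation p = 0.017, adjusted p = 0.17, n = 12). Without the 2 tumors farthest from the Dusp6 median r was 0.78, and within groups, after their means were subtracted, it was 0.77. Dusp5 and Phlda1 came next (r = 0.70, permutation p = 0.014, adjusted p = 0.25, and rho = 0.71, permutation p = 0.012, adjusted p = 0.17), and r was 0.59 without the 2 farthest tumors and 0.66 within groups. Spry2 and Spry4, both Sprouty genes, had r = 0.66 (permutation p = 0.019, adjusted p = 0.25, and rho = 0.71, permutation p = 0.012, adjusted p = 0.17), with 0.66 both without the 2 farthest tumors and within groups. None of these 3 pairs changed sign without bexarotene replicate 1, where r was 0.70, 0.69 and 0.64. The paralogs Etv4 and Etv5 were not alike (r = -0.07, permutation p = 0.83, adjusted p = 0.83, and rho = -0.17, permutation p = 0.59, adjusted p = 0.68), with r of -0.17 without the 2 farthest tumors and 0.17 within groups.

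**Figure D4:**
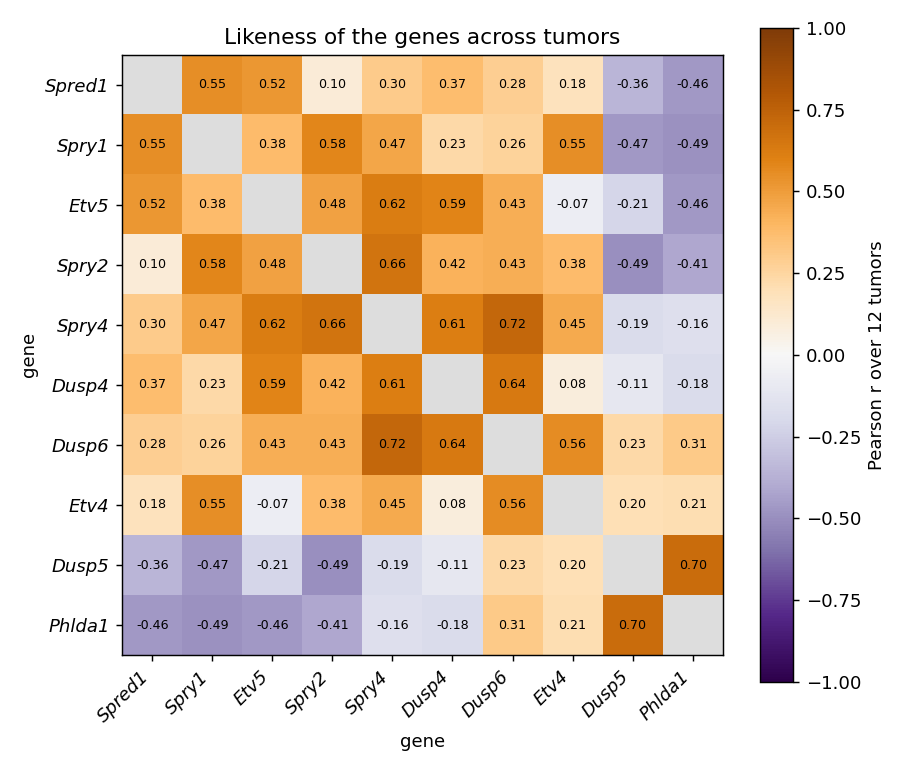
Pearson's r of log2 normalized CPM over 12 tumors for each pair of feedback genes, with orange for positive and purple for negative values. The block of 8 genes at the upper left is positive but for Etv4 with Etv5 (-0.07), and Dusp5 and Phlda1 at the lower right are positive with each other (0.70) and negative with 6 of the other genes each.

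Etv5 and Spry4 had the largest r with Erbb2, the receptor gene, among the 10. For Etv5 r was 0.60 (permutation p = 0.041, adjusted p = 0.21) and rho 0.69 (permutation p = 0.017, adjusted p = 0.17). It was 0.76 without the 2 tumors farthest from the Erbb2 median, MSU-42011 replicates 3 and 4, and 0.59 after group means were subtracted. For Spry4 r was 0.59 (permutation p = 0.042, adjusted p = 0.21) and rho 0.41 (permutation p = 0.18, adjusted p = 0.61), and r fell to 0.40 without those 2 tumors. Thus 0 of 10 genes passed the adjustment over the 10. Dusp6, the gene of the set with the highest FPKM, had an r of 0.22 with Erbb2 (permutation p = 0.50, adjusted p = 0.62, and rho = 0.16, permutation p = 0.62, adjusted p = 0.76), and r was 0.14 without those 2 tumors.

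**Figure D5:**
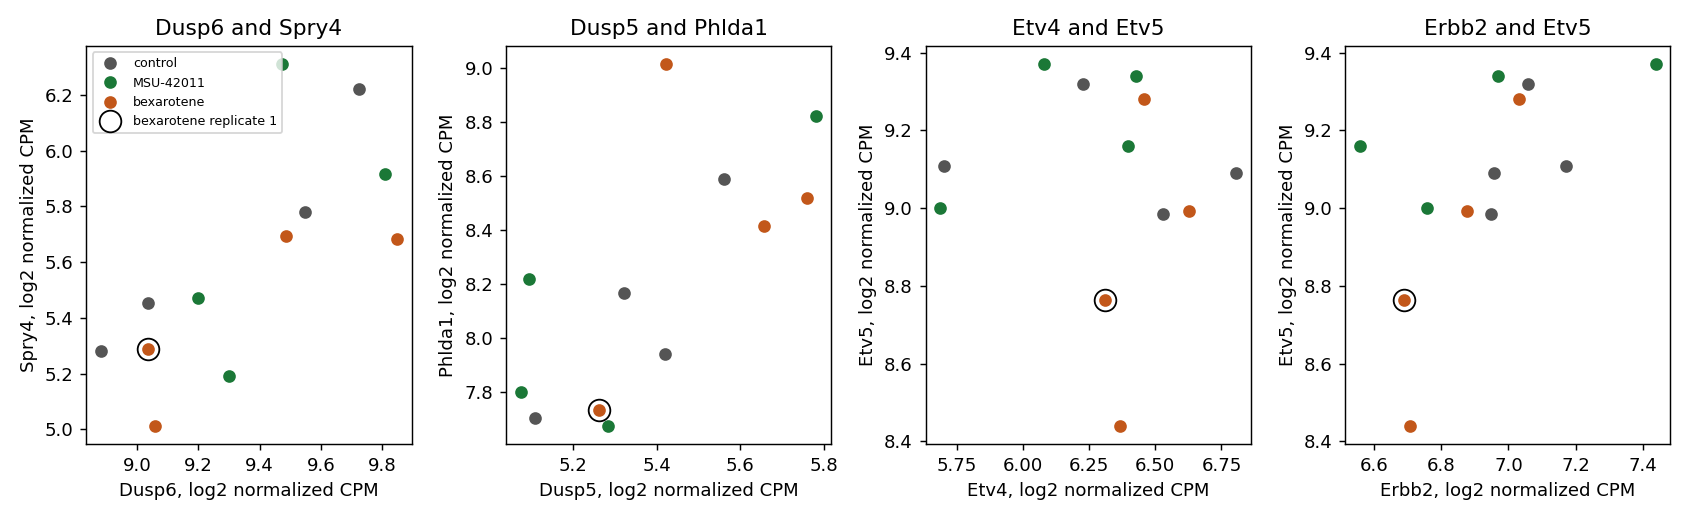
Log2 normalized CPM of 4 pairs of genes, 1 point per tumor colored by diet group, with bexarotene replicate 1 circled. Dusp6 with Spry4 (r = 0.72) and Dusp5 with Phlda1 (r = 0.70) rise together in tumors of all groups, Etv4 with Etv5 (r = -0.07) do not, and Etv5 against Erbb2 has r = 0.60.

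For each gene the tested gene whose values were most like its own over the 12 tumors, out of 15494 searched, was found by Pearson's r. With r between 0.86 and 0.97, these were Zbtb33 for Dusp4, Shpk for Dusp5, Limd1 for Dusp6, Alkal2 for Spry1, Ptpru for Spry2, Sh3tc2 for Spry4, Gbp7 for Spred1, Mapk11 for Etv4, Glod4 for Etv5 and Slc46a3 for Phlda1. Each is the highest of many values, and the points share depth and tumor makeup, so these r are descriptions only. None of these 10 genes belongs to the pathway lists used here. Dusp6 had a higher r with Spry4 than with all but 0.722% of tested genes.

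Related genes outside the set were read from lists of known pathway members. Of 21 other feedback regulators of ERK and receptors, 20 were tested and 0 were called in any comparison. At an unadjusted p under 0.05, 1 of the 20 was higher with MSU-42011 than in control, where the share over all tested genes was 1.99%, and 3 of the 20 were higher with bexarotene, where it was 6.44%. Lrig3, which encodes a transmembrane protein, had 16.2 ± 2.37 normalized CPM in control tumors, 21.3 ± 1.44 with MSU-42011 and 22.9 ± 4.41 with bexarotene. All 4 MSU-42011 tumors, at 19.2 to 22.2, were above the control tumors, at 12.8 to 18.3, as in the 1.97% of tested genes given above, and the edgeR adjusted p was 1.000. Il17rd, an inhibitor of ERK signaling also known as Sef, had 1.55 ± 0.51, 2.95 ± 1.49 and 4.03 ± 3.53, and its highest value, 9.3, was that of bexarotene replicate 1. Dusp1, a phosphatase of all 3 main classes of MAP kinase, had 14.1 ± 2.82, 18.2 ± 7.43 and 26.7 ± 17.5.

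Of 18 other genes induced by ERK, 0 were called. For MSU-42011 against control 5 had a higher and 13 a lower mean, where 50.3% of all tested genes were higher. For bexarotene against control 11 had a higher and 7 a lower one, where 55.3% of all tested genes were higher. These directions were not tested. Egr2, an immediate early transcription factor, had between 0.7 and 1.8 normalized CPM in 10 of 12 tumors, and 15.7 and 3.8 in bexarotene replicates 1 and 2, so its log2 difference of 1.88 between bexarotene and control (edgeR adjusted p = 0.76) came from those tumors. Fosb and Fos, subunits of AP-1, had log2 differences of 1.38 and 0.73 for bexarotene against control (edgeR adjusted p = 0.85 and 0.88). Fibroblast and macrophage markers were also highest in bexarotene replicate 1, as given above, and their part in these values was not tested.

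The third PEA3 factor, Etv1, was at 326 ± 27.9 normalized CPM in control tumors, 391 ± 83.4 with MSU-42011 and 402 ± 22.0 with bexarotene, with all 4 bexarotene tumors, at 373 to 426, above the control tumors, at 284 to 343.5, as in the 2.03% of tested genes given above (log2 difference 0.30, edgeR adjusted p = 0.80). In FPKM its mean was 154, between those of Etv5 and Etv4. Phlda2 and Phlda3, relatives of Phlda1, were at 12.7 ± 2.30 and 7.33 ± 2.42 normalized CPM in control tumors, and Phlda3 was at 14.6 ± 11.5 with bexarotene, a log2 difference of 1.00 (edgeR adjusted p = 0.76). Bexarotene replicate 1 had 31.5 normalized CPM of Phlda3, and the other bexarotene tumors had 12.4, 8.96 and 5.76, of which the last 2 lay within the control range of 4.38 to 10.2. Of 7 ETS factors and partners of PEA3 control, 0 were called. Elk4 and Srf, whose products act together at CArG boxes, had log2 differences of 0.22 and -0.21 for bexarotene against control, and Elk3, of the same family as Elk4, had 0.28. Their edgeR adjusted p-values were 0.85, 0.88 and 0.93.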

How the data were processed

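RNA-seq of 12 mammary tumors was used, 4 per diet group by their labels, and the study describes 4 mice per group. The authors deposited raw read counts per gene and, separately, FPKM, which they normalized for library size and gene length. The submitters' processing notes name STAR 2.6.1d, featureCounts 1.5.0-p3 and DESeq2. The strand setting and the build are not given in the sources used here, and the coordinates matched GRCm38. Files of the authors' own comparisons were not used. No labelled batch was at hand.

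Counts were filtered with filterByExpr at its defaults, scaled by TMM and tested with the quasi-likelihood test of edgeR 4.0.16 in 1 fit of all 12 tumors with a mean per group, with Benjamini-Hochberg adjustment over 15504 genes and a threshold of 0.05. Intervals are 95% intervals. Log2 levels of single tumors have 0.5 added to the normalized CPM. Correlations were tested with 100000 permutations. Total counts of 16583413 to 25925027 per tumor limit the precision of low counts. Reads of antisense genes overlapping Spry1 (45 in all) and Spry4 (2 and 7) were few beside 16270 and 11975. The labels name no pairing of tumors by replicate number, and none was used in the main fit.

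Alternatives were DESeq2 1.42.0, edgeR with the size factors of DESeq2, edgeR without the filter on low counts, limma 3.58.1 on log2 FPKM plus 1 or 0.1, the 2 groups of a comparison alone, the replicate number as a block, and each tumor left out. R 4.3.3, Python 3.11.15, NumPy 2.4.6 and SciPy 1.17.1 were used, and the fit was tested on simulated data. The 10 genes and the lists were chosen with earlier results of these data known. Named beside the 10 genes were Erbb2 and Mapk3, the 3 genes of each list with the smallest p among the groups, and the gene most like each of the 10. P-values of pairs and the CArG search were added after the data were seen, and the count of GGAA or TTCC was not planned. A further gene of this rule is not reported here.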

Additional observations from a re-analysis of the deposited data

Results flagged for a closer look

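Of the 30 groups of 4 values that the 10 genes and 3 diets give, 2 held a tumor far from its group, judged by Dixon's ratio of its gap to the nearest tumor over the whole range, at the 95% level. Chance alone marks about 1 in 20 groups. Dusp4 was at 43.2 normalized CPM in control replicate 3 and between 22.3 and 23.3 in the other control tumors, a ratio of 0.948. Spry2 was at 63.9 in MSU-42011 replicate 2 and between 91.5 and 96.0 in the other MSU-42011 tumors, a ratio of 0.857.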

How the results depend on the processing

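None of the 30 fold changes of the 10 genes passed the adjusted threshold in any of 570 recomputed values, of which 536 kept their direction. Among the 34 that changed it, 27 left out 1 tumor and 7 used other settings. On log2 FPKM plus 1 and plus 0.1, Dusp5 for MSU-42011 against control was 0.0169 and 0.0173, Spry2 was 0.0205 and 0.0205, and Spry1 between the drugs was -0.0186 and -0.0295. With the replicate number as a block, Spry1 between the drugs was -0.0019; the block called 0 of the 10 genes. The labels do not say what the replicate numbers stand for. Of 12 pairs of tumors with 1 number, 5 correlated above 0.1 (range -0.39 to 0.38), and 5 tumors correlated best with their own number. These few correlations cannot decide whether tumors with 1 number share a source, which was not tested. The r of Spred1 with Erbb2 was -0.0010 with group means subtracted. All these values are near 0, and the cause was not tested.

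Leaving out each tumor in turn gave these ranges of log2 fold changes that crossed 0. For MSU-42011 against control they were -0.21 to 0.054 for Dusp5, -0.011 to 0.28 for Dusp6, -0.086 to 0.089 for Spry2, -0.17 to 0.27 for Spry4, -0.056 to 0.073 for Spred1 and -0.22 to 0.25 for Phlda1. For bexarotene against control they were -0.25 to 0.42 for Dusp4, -0.13 to 0.21 for Dusp6 and -0.096 to 0.26 for Etv4. Between the drugs they were -0.022 to 0.60 for Dusp4, -0.068 to 0.26 for Dusp6, -0.060 to 0.42 for Spry1 and -0.0069 to 0.17 for Spry2. The median over the 10 genes ranged from -0.01 to 0.17, from -0.11 to 0.20 and from -0.02 to 0.16 in the 3 comparisons. The number of the 10 genes whose groups did not overlap ranged from 0 to 1 for MSU-42011 against control, with 1 without control replicate 3 or MSU-42011 replicate 2, and from 0 to 1 between the drugs, with 1 without MSU-42011 replicate 2 or bexarotene replicate 3. Over all tested genes DESeq2 called 1, 6 and 25 genes in the 3 comparisons and 5 among the groups, where edgeR called 0, and edgeR without MSU-42011 replicate 2 called 1 for bexarotene against control and 1 among the groups. The study's own DESeq2 list over the 3 groups, at the same adjusted threshold, was longer, and the reason was not examined. With limma on log2 FPKM, 1 of the 10 genes had an unadjusted p under 0.05, between the drugs. With 1 tumor left out, 5 fold changes of the 10 genes had one in edgeR, with adjusted p of at least 0.45: Spry1 for MSU-42011 against control, and Spry1 and Dusp5 between the drugs, without MSU-42011 replicate 2, and Etv5 for bexarotene against control and between the drugs, without bexarotene replicate 3. Depth limits low counts; all of the 10 genes passed the filter.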

Other observations

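Nf1, which encodes neurofibromin, the RAS inactivator that SPRED1 brings to the membrane, was named here after its values were seen. It had 1085, 642, 3254 and 1395 normalized CPM in control tumors, 2489, 1953, 799.5 and 1682 with MSU-42011, and 2046, 3938, 2093 and 2877 with bexarotene, and its mean of 449 FPKM was higher than that of each of the 10 feedback genes. In the table it ranked 211 by mean FPKM, while Erbb2 ranked 3462. Such orders can depend on the length used, as for Etv4 above, and the length behind the FPKM values of Nf1 was not examined. The log2 difference of Nf1 was 0.78 for bexarotene against control (edgeR adjusted p = 0.86), and all groups overlapped. Genes on the other strand within its locus had at most 1292 reads in all 12 tumors, against 485644 for Nf1. What sets this level was not tested.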
